A study of Penicillium citrinum with 6 samples.

Results

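The genes described here are those whose product name in the deposited tables of *Penicillium citrinum* speaks of iron uptake, siderophores or iron-sulfur clusters. They were chosen by a search of the names for siderophore, siderochrome, ferric, ferrichrome, ferro, iron transport, iron permease, iron-sulfur, hemophore or CFEM, and the search returned 49 of 9385 genes. A further condition, that names with ubiquinone, ubiquinol or cytochrome b-c1 be left out, removed 0 genes. By name, 24 are transporters of siderophores or siderochromes and 1 is a siderophore esterase. Another 13 were grouped under ferric reduction, reductive uptake and vacuolar storage, and 1 of these, neuferricin, matched by its letters alone. Of the rest, 3 are hemophore or CFEM proteins and 6 make or move iron-sulfur clusters. The last 2 are a ferrochelatase and a gene named ferroptosis suppressor protein 1. Names were the sole criterion. Neuferricin (PCI_2198), known from animals as a haem-binding protein, and ferroptosis suppressor protein 1 (PCI_3610), known from human cells, came in through the letters of their names.

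Filamentous fungi take up iron by several routes. In reductive uptake, ferric reductases at the plasma membrane turn ferric into ferrous iron, which a multicopper ferroxidase and an iron permease then carry into the cell. In the siderophore route, as known from *Aspergillus*, ornithine is hydroxylated and acylated and the units are joined by nonribosomal peptide synthetases into fusarinine C, triacetylfusarinine C or ferricrocin. Loaded siderophores return through transporters of the major facilitator superfamily (MFS), such as MirB, and esterases open them to free the iron. In *Candida albicans*, CFEM proteins at the cell surface, called hemophores, take iron from haem. Surplus iron enters the vacuole through CccA. In *Aspergillus* the GATA factor SreA represses uptake when iron is plentiful and the bZIP factor HapX acts when it is scarce.

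Total RNA of wild-type mycelium was sequenced in 6 libraries, 2 in each of 3 groups, and all 6 carry the same further label, CY-H4, which the labels do not explain. TL3D and TL2D are mycelium from tobacco leaves, described by the submitters as "flured", taken 3 and 2 days after inoculation with conidia at 25 °C. CK2D is mycelium from Czapek-Dox plates taken after 2 days at 25 °C. The titles do not spell the codes out. They were matched through the sampling days, since leaves were sampled at days 2 and 3 and plates at day 2. The labels do not say whether replicates came from separate cultures, so the p-values reflect the spread of these samples alone, and that spread may be technical.

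Each library has an FPKM value per gene. FPKM divides a gene's fragments by its length and by the library's total, so levels can be set side by side between genes. FPKM summed to between 582600 and 614206 per library, and the read depth behind them is unknown. The TL2D replicates lay further apart than the others. Their log2 values correlated at 0.982 across genes, which are not independent replicates, against 0.996 in TL3D and 0.996 in CK2D. Of 11 genes with names of conidia, conidiophores, spores or hydrophobins, 0 were at 0 in any library, and the regulators brlA, abaA and wetA were present in each group. Their summed level was 21443 and 24730 FPKM in TL3D, 10173 and 7262 in TL2D, and 20733 and 19478 in CK2D. In bulk samples, fewer cells of a type and less RNA per cell cannot be told apart. Below, changes are log2 ± SE from limma on log2(FPKM + 1), a scale that understates the change of genes near 1 FPKM. The words rose and fell are kept for a Benjamini-Hochberg adjusted p under 0.05 over all tested genes. A gene was tested if 2 or more of the 4 libraries compared had 1 FPKM or more.

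On leaves 12 siderophore transporters in TL3D and 11 in TL2D were higher than on plates, the fetC and ftrA genes of reductive uptake passed in no comparison, and a hemophore gene was far lower. Of the 40 iron genes tested in TL2D against CK2D, 15 rose and 8 fell, or 57.5%, beside 54.2% of all 8286 tested genes. Those that rose were 37.5% of the tested iron genes, beside 24.8% of all tested genes. For falls the counts were 8 of 40, beside 29.4% of all tested genes. The median log2 change was 0.34, beside −0.10 over all tested genes. In TL3D against CK2D 41 were tested, 21 rose and 8 fell, or 70.7%, beside 58.3% of all 8356 tested genes, of which 28.1% rose and 30.2% fell. The median there was 0.32, beside −0.04. Both comparisons use the same CK2D libraries. In TL3D against TL2D 3 of 41 rose and 2 fell, or 12.2%, a share near the background of 10.1% of all 8222 tested genes, of which 6.77% rose and 3.3% fell. The count there ran from 0 to 17 when 1 library was left out. The other 8 genes never entered a test, since their highest library value lay between 0.12 and 0.943 FPKM. They are 7 transporters and ferroptosis suppressor protein 1. Some tested genes passed the filter through the leaf libraries alone. In 6 of the 15 that rose in TL2D, both plate libraries were under 1 FPKM, so that these could hardly be tested without being higher on leaves, and the same holds for 7 of the 21 that rose in TL3D. All of these are siderophore transporters, and they enter the counts, shares and medians just given. Among the other 34 tested iron genes, 14 rose and 8 fell in TL3D, and 9 rose and 8 fell in TL2D. These counts still hold PCI_1223, PCI_2695 and PCI_2721, each with only 1 plate library at 1 FPKM or more. They too needed a leaf library to pass the filter, and all of them rose in both leaf groups. The counts of the other 34 are therefore not free of the filter.

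**Figure D1:**
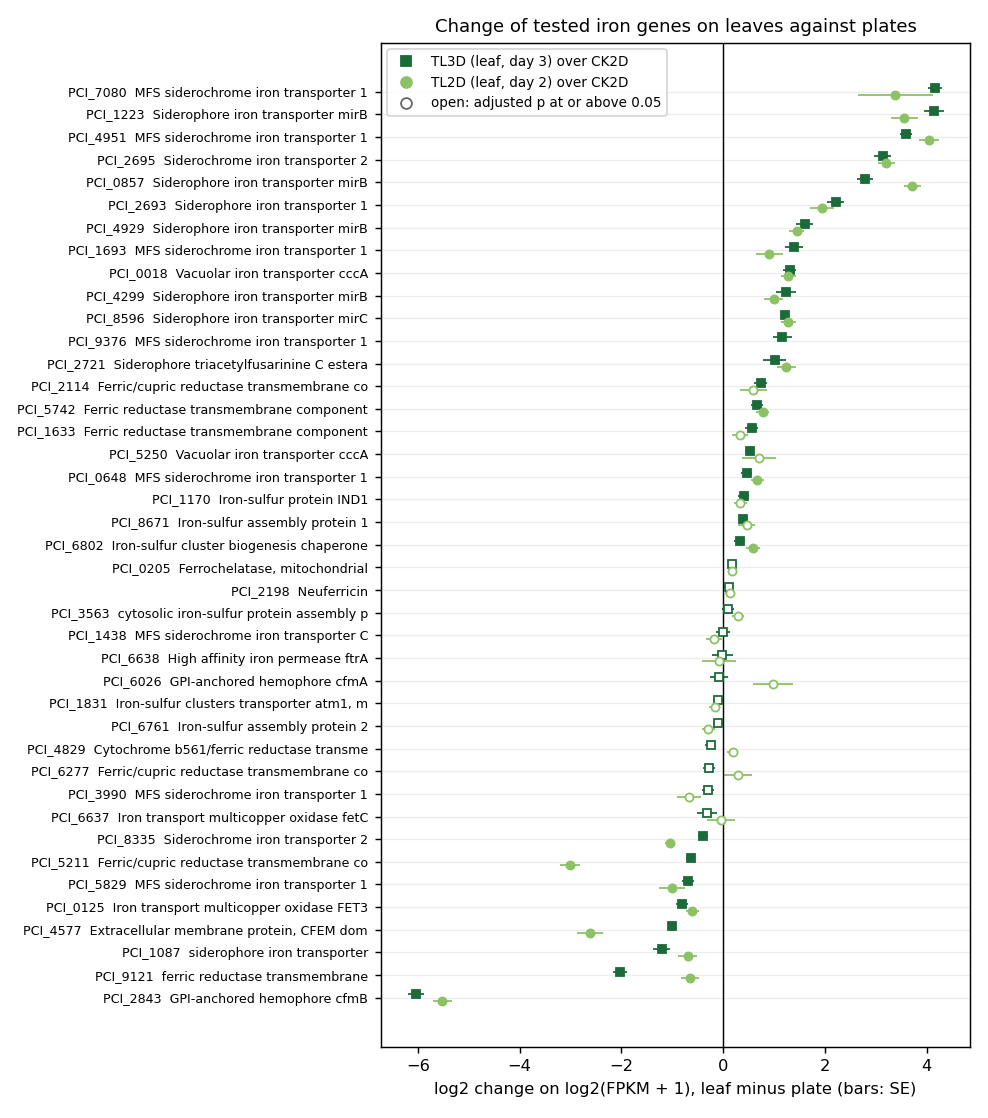
Log2 change of 41 tested iron genes on leaves against plates (x axis, leaf minus plate on log2(FPKM + 1), bars are SE, n = 2 libraries per group), squares for TL3D and circles for TL2D, both against the same CK2D libraries. Filled symbols passed at an adjusted p under 0.05. Siderophore transporters fill the top, up to 4.17 for PCI_7080 in TL3D, and the hemophore gene cfmB lies lowest, at −6.04 in TL3D and −5.52 in TL2D.

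Of the 24 transporter genes, 17 had a mean of at least 1 FPKM in TL3D, 16 in TL2D and 8 in CK2D. Their summed level was 296.2 and 275.1 FPKM in TL3D, 293.6 and 254.8 in TL2D, and 143.7 and 137.7 in CK2D. The leaf libraries thus lie above the plate libraries without overlap in the sum. Of the 17 tested in TL3D against CK2D, 12 rose and 3 fell, beside 28.1% and 30.2% of all tested genes, but 7 of the 12 entered the test through the leaf libraries alone. Among the other 10, 5 rose and 3 fell. Of the 16 tested in TL2D against CK2D, 11 rose and 3 fell, beside 24.8% and 29.4% of all tested genes, and 6 of the 11 entered through the leaf libraries alone. Among the other 10, 5 rose and 3 fell here too. In both comparisons these 5 include PCI_1223 and PCI_2695, each with 1 plate library under 1 FPKM. Those genes also needed a leaf library to be tested. The counts over all tested transporters therefore say little about the family, and the values of single genes follow. The names do not show which siderophore each protein carries. They repeat, with 8 genes named MFS siderochrome iron transporter 1, 5 named mirB and 3 named siderochrome iron transporter 2. How the authors assigned reads shared by similar genes is not given in the sources used here, so levels of same-named genes are uncertain to that extent.

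The most abundant transporter on leaves was mirC (PCI_8596), one of the siderophore transporter family. It had 87.2 and 87.3 FPKM in TL3D, 105 and 80.6 in TL2D, and 36.8 and 37.6 in CK2D. Every leaf library was above both plate libraries, and mirC rose in TL3D (log2 1.21 ± 0.08, 2.35-fold, adjusted p = 2.37e-05) and in TL2D (1.28 ± 0.15, 2.49-fold, adjusted p = 0.00431). It held 29.4% and 31.7% of the summed transporter FPKM in TL3D, 35.6% and 31.6% in TL2D, and 25.6% and 27.3% in CK2D. On plates the first place belonged to a siderochrome iron transporter 2 gene (PCI_8335), with 34.6% and 33.3% of the sum.

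The MFS siderochrome iron transporter 1 gene PCI_4951 had 29.1 and 28.8 FPKM in TL3D, 33.5 and 47.2 in TL2D, and 1.60 and 1.34 in CK2D. It was near the filter on plates and among the 4 most abundant transporters in both leaf groups. Its level was 19.7-fold that of plates in TL3D (log2 3.60 ± 0.12, adjusted p = 5.99e-07) and 27.5-fold in TL2D (4.05 ± 0.20, adjusted p = 0.0008). A mirB gene (PCI_1223), named after the *Aspergillus* transporter of triacetylfusarinine C, had 42.3 and 27.9 FPKM in TL3D, 29.3 and 17.4 in TL2D, and 0.925 and 1.07 in CK2D. The leaf replicates of this gene lay well apart, yet all 4 were far above the plates. It rose by log2 4.15 ± 0.19 in TL3D (adjusted p = 3.27e-06) and 3.57 ± 0.27 in TL2D (adjusted p = 0.00169).

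A second gene of the siderochrome iron transporter 2 name (PCI_2695) had 19.1 and 14.3 FPKM in TL3D, 15.7 and 19.3 in TL2D, and 0.878 and 1.10 in CK2D. It rose 16.8-fold in TL3D (log2 3.14 ± 0.16, adjusted p = 6.02e-06) and 17.7-fold in TL2D (3.21 ± 0.17, adjusted p = 0.000854). The siderophore iron transporter 1 gene PCI_2693, whose number lies 2 from it, had 5.46 and 4.24 FPKM in TL3D, 4.77 and 3.04 in TL2D, and 0.183 and 0.334 in CK2D. This neighbour rose as well, by log2 2.21 ± 0.17 in TL3D (adjusted p = 4.69e-05) and 1.94 ± 0.24 in TL2D (adjusted p = 0.00477). The gene numbered between them (PCI_2694, hypothetical protein) averaged 3.69 FPKM in TL3D, 4.37 in TL2D and 2.79 in CK2D, with no call.

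PCI_7080, another MFS siderochrome iron transporter 1, had the largest fitted rise in TL3D. It had 18.1 and 19.4 FPKM in TL3D, 23.3 and 4.45 in TL2D, and 0.068 and 0.128 in CK2D. The TL2D replicates differed widely, but both were above the plates. It rose by log2 4.17 ± 0.13 in TL3D (adjusted p = 5.27e-07) and 3.39 ± 0.73 in TL2D (adjusted p = 0.019). Without TL2D replicate 1 the day-2 change was 2.31, and without TL2D replicate 2 it was 4.47. With plate levels this close to 0, its 192-fold and 142-fold ratios of means rest on the plate value.

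The mirB gene PCI_0857 and, as given further on, PCI_8335 are the transporters called between the leaf days. PCI_0857 had 7.37 and 8.47 FPKM in TL3D, 14.8 and 17.2 in TL2D, and 0.206 and 0.364 in CK2D. The groups do not overlap, and TL2D is highest. Against plates it rose by log2 2.80 ± 0.15 in TL3D (adjusted p = 7.74e-06) and 3.72 ± 0.16 in TL2D (adjusted p = 0.000515), and in TL3D against TL2D it fell by 0.93 ± 0.15 (adjusted p = 0.0311). Its day 3 to day 2 call was lost without either TL3D replicate (adjusted p = 0.32 and 0.26).

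The remaining rises were in genes under 10 FPKM. Another mirB gene (PCI_4929) had 5.36 and 4.09 FPKM in TL3D, 4.15 and 4.01 in TL2D, and 0.984 and 0.759 in CK2D. A further mirB gene (PCI_4299) had 3.36 and 2.14 FPKM in TL3D, 2.46 and 1.80 in TL2D, and 0.53 and 0.599 in CK2D. PCI_1693, an MFS siderochrome iron transporter 1, had 4.19 and 3.06 FPKM in TL3D, 3.10 and 1.63 in TL2D, and 0.739 and 0.760 in CK2D. All 3 genes were higher in every leaf library than in either plate library, and they rose in both leaf groups against plates, by log2 1.24 to 1.61 in TL3D and 0.91 to 1.44 in TL2D. PCI_0648 of the same name, at 7.54 FPKM in TL3D, 8.90 in TL2D and 5.21 in CK2D, rose by log2 0.46 and 0.67 (adjusted p = 0.0111 and 0.0137). PCI_9376, with 1.504 and 1.33 FPKM in TL3D, 1.04 and 0.575 in TL2D, and 0.0121 and 0.143 in CK2D, could be tested against plates at day 3 only and rose there (log2 1.17 ± 0.18, adjusted p = 0.00124). It lies just inside the test's filter. The RhtX/FptX family transporter PCI_1934, with at most 0.84 FPKM, lies just outside.

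Not all transporters were higher on leaves. The siderochrome iron transporter 2 gene PCI_8335 had 37.6 and 34.7 FPKM in TL3D, 23.0 and 22.1 in TL2D, and 49.8 and 45.8 in CK2D. It was lowest in TL2D and highest on plates, with no overlap. It fell by log2 0.39 ± 0.09 in TL3D (adjusted p = 0.0101) and 1.05 ± 0.10 in TL2D (adjusted p = 0.00269) against plates, and rose by 0.66 ± 0.11 in TL3D against TL2D (adjusted p = 0.0337). That last call was lost without either TL3D replicate (adjusted p = 0.333 and 0.267) and when replicate numbers were fitted as a block (adjusted p = 0.0511). The fall in TL3D did not pass without CK2D replicate 1 (adjusted p = 0.0504) and without TL3D replicate 2 (adjusted p = 0.0588).

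PCI_5829, of the MFS siderochrome iron transporter 1 name, had 13.6 and 17.0 FPKM in TL3D, 9.34 and 15.6 in TL2D, and 25.9 and 24.6 in CK2D. It fell by log2 0.69 ± 0.12 in TL3D (adjusted p = 0.00252) and 1.00 ± 0.25 in TL2D (adjusted p = 0.0273). In 1 fit of all 6 libraries the TL3D fall did not pass (adjusted p = 0.0544). The siderophore iron transporter gene PCI_1087 had 1.76 and 2.33 FPKM in TL3D, 3.72 and 2.97 in TL2D, and 6.79 and 5.30 in CK2D. It fell by log2 1.21 ± 0.17 in TL3D (adjusted p = 0.000774) and 0.69 ± 0.18 in TL2D (adjusted p = 0.0332). Both genes were lower in all 4 leaf libraries than in either plate library. PCI_3990 and PCI_1438 did not pass, at 5.97 and 4.22 FPKM in TL3D, 4.48 and 3.62 in TL2D, and 7.56 and 4.24 in CK2D.

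**Figure D2:**
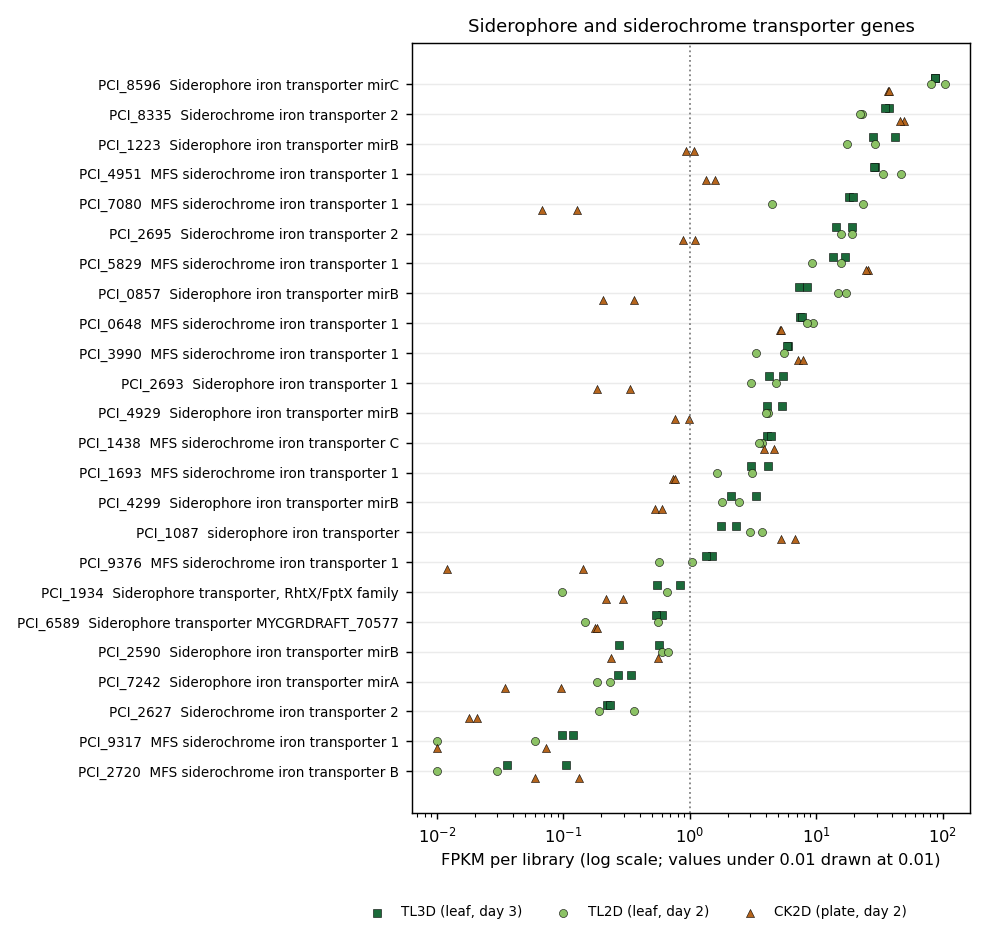
FPKM of the 24 siderophore and siderochrome transporter genes in each library (x axis, log scale, values under 0.01 drawn there), squares for TL3D, circles for TL2D and triangles for CK2D, ordered by the TL3D mean. The dotted line marks 1 FPKM. In genes such as PCI_4951, PCI_1223, PCI_2695 and PCI_0857 the leaf symbols lie well to the right of the plate symbols, while PCI_8335, PCI_5829 and PCI_1087 are highest on plates.

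The siderophore triacetylfusarinine C esterase (PCI_2721), whose *Aspergillus* counterpart opens the imported siderophore, had 4.31 and 2.64 FPKM in TL3D, 4.09 and 4.24 in TL2D, and 1.45 and 0.935 in CK2D. It was higher in every leaf library and rose in TL3D (log2 1.01 ± 0.22, adjusted p = 0.00617) and TL2D (1.25 ± 0.18, adjusted p = 0.00741). The transporter numbered next to it (PCI_2720) stayed at or under 0.134 FPKM in every library and was listed at 0 in TL2D replicate 1.

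Genes for making and opening siderophores that the name search did not return were taken as a separate list of 18. Of its 14 tested genes, 6 rose and 2 fell in TL3D against CK2D, beside 28.1% and 30.2% of all tested genes, with a median log2 change of 0.07. In TL2D 6 rose and 4 fell, beside 24.8% and 29.4%, with a median of 0.23. The L-ornithine N(5)-monooxygenase gene PCI_2582, for the first step of hydroxamate siderophore synthesis, rose most. It had 40.9 and 33.0 FPKM in TL3D, 54.1 and 67.9 in TL2D, and 8.39 and 8.98 in CK2D. Its rise was log2 1.96 ± 0.12 in TL3D (adjusted p = 1.62e-05) and 2.67 ± 0.15 in TL2D (adjusted p = 0.000974).

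Among the other genes that rose were an acyl-CoA ligase sidI (PCI_2116) and a mevalonyl-coenzyme A hydratase sidH (PCI_2591), both in TL3D and TL2D. Of the sidJ esterase names, PCI_0852 and PCI_5298 rose in each leaf group as well, and the transacylase SID3 (PCI_2593) rose in TL2D. A further sidJ name, PCI_2598, averaged 17.96 FPKM in TL3D, 18.53 in TL2D and 19.6 in CK2D, with overlapping groups. The ligase averaged 6.50 FPKM in TL3D, 9.70 in TL2D and 3.07 in CK2D. The hydratase averaged 5.54 in TL3D, 9.33 in TL2D and 3.22 in CK2D. Of the other 2 sidI names, PCI_7775 averaged 3.89 FPKM in TL3D, 4.23 in TL2D and 7.26 in CK2D and fell in both leaf groups (adjusted p = 0.00151 and 0.0311). The third, PCI_5195, was lower than plates at day 2 only, with 9.08 and 6.06 FPKM in TL3D, 1.56 and 0.509 in TL2D, and 4.76 and 4.40 in CK2D. It fell by log2 1.51 ± 0.29 in TL2D (adjusted p = 0.0142), rose by 2.10 ± 0.33 in TL3D against TL2D (adjusted p = 0.0302), and rose by 0.60 ± 0.18 in TL3D against CK2D (adjusted p = 0.0238). The gene PCI_5607, annotated as an L-lysine 6-monooxygenase or L-ornithine 5-monooxygenase, averaged 4.03 FPKM in TL3D, 3.96 in TL2D and 17.8 in CK2D, and fell in both (log2 −1.89 ± 0.13 and −1.97 ± 0.30). The peptide synthetase sidC (PCI_2583), which builds ferricrocin in *Aspergillus*, had 2.56 and 2.15 FPKM in TL3D, 3.56 and 3.42 in TL2D, and 2.19 and 2.47 in CK2D, with no call. The sidD name (PCI_0853), the synthetase of fusarinine C there, stayed under 1 FPKM at 0.742 in TL3D, 0.586 in TL2D and 0.0688 in CK2D, and was not tested.

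**Figure D3:**
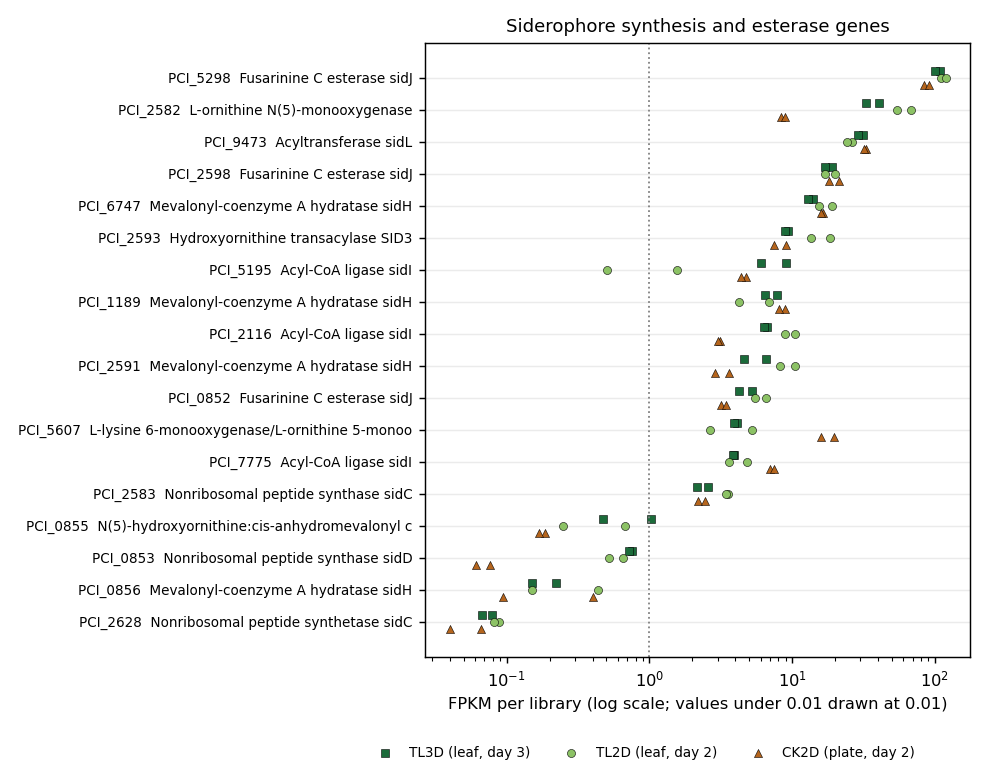
FPKM of the 18 siderophore synthesis and esterase genes in each library (x axis, log scale), squares for TL3D, circles for TL2D and triangles for CK2D, ordered by the TL3D mean. PCI_2582 is clearly apart from its plate level on leaves, PCI_5195 is low in TL2D alone, and PCI_5607 is highest on plates.

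The core pair of reductive uptake did not pass in any comparison. The ferroxidase gene fetC (PCI_6637) had 9.34 and 5.91 FPKM in TL3D, 12.2 and 6.92 in TL2D, and 9.86 and 9.198 in CK2D. The iron permease gene ftrA (PCI_6638), which carries the next gene number, had 13.8 and 8.75 FPKM in TL3D, 14.5 and 7.51 in TL2D, and 12.6 and 9.79 in CK2D. The groups overlap in both genes, and their log2 changes against plates were −0.32 ± 0.19 and −0.01 ± 0.21 in TL3D and −0.04 ± 0.27 and −0.08 ± 0.33 in TL2D (adjusted p from 0.186 to 0.957). In both genes replicate 1 was above replicate 2 in every group. The other multicopper oxidase, FET3 (PCI_0125), had 7.99 and 9.40 FPKM in TL3D, 10.9 and 9.42 in TL2D, and 15.3 and 16.6 in CK2D. It was lower in all leaf libraries and fell by log2 0.81 ± 0.12 in TL3D (adjusted p = 0.00102) and 0.60 ± 0.13 in TL2D (adjusted p = 0.0189).

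Of the 7 genes with reductase names, 3 rose and 2 fell in TL3D against CK2D, beside 28.1% and 30.2% of all tested genes. In TL2D against CK2D 1 rose and 2 fell, beside 24.8% and 29.4%, so these shares are near the background. Ferric/cupric reductase component 2 (PCI_5211) had 40.6 and 43.0 FPKM in TL3D, 8.89 and 5.99 in TL2D, and 67.2 and 64.2 in CK2D. All 3 groups are apart, with TL2D lowest. Against plates it fell by log2 0.64 ± 0.09 in TL3D (adjusted p = 0.000729) and 3.00 ± 0.19 in TL2D (adjusted p = 0.00124), and it rose 5.62-fold in TL3D against TL2D (log2 2.36 ± 0.20, adjusted p = 0.0145). The call between days was lost without either TL3D replicate (adjusted p = 0.284 and 0.22). Of the 11 conidia and hydrophobin names listed above, 6 fell and 2 rose in TL2D against CK2D. In TL3D against TL2D 6 rose and 2 fell, beside 6.77% and 3.3% of all tested genes. Not all were lower in TL2D. The hydrophobin PCI_2115 had 1702 and 2137 FPKM there and 404 and 314.2 in CK2D. Likewise the hydrophobin PCI_9301 had 395.2 and 297.9 in TL2D and 2.265 and 1.976 in CK2D. The part of these 11 names in the pattern of PCI_5211 was not tested.

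A further ferric reductase (PCI_9121) fell in steps. It had 10.3 and 7.96 FPKM in TL3D, 29.1 and 21.7 in TL2D, and 38.1 and 42.0 in CK2D. It was lower in TL3D than in TL2D (log2 −1.38 ± 0.20, adjusted p = 0.0281), and it fell against plates by log2 2.03 ± 0.13 in TL3D (adjusted p = 1.83e-05) and 0.65 ± 0.17 in TL2D (adjusted p = 0.0308). The day-2 fall had an adjusted p of 0.0541 with the replicate number as a block, and of 0.124 and 0.172 without CK2D replicate 1 or 2. The call between days was lost without either TL3D replicate (adjusted p = 0.293 and 0.261). The low affinity copper transporter gene with the number before it (PCI_9120) had 16.9 and 15.5 FPKM in TL3D, 34.7 and 29.6 in TL2D, and 60.5 and 62.2 in CK2D, and fell in all 3 comparisons.

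Among the reductases that rose, ferric reductase component 3 (PCI_5742) was the most abundant, with 85.2 and 96.8 FPKM in TL3D, 103 and 94.4 in TL2D, and 62.6 and 51.7 in CK2D. It rose by log2 0.67 ± 0.12 in TL3D (adjusted p = 0.00244) and 0.78 ± 0.13 in TL2D (adjusted p = 0.00937). The second gene of that name (PCI_1633) averaged 60.0 ± 4.5 FPKM in TL3D, 51.3 ± 7.5 in TL2D and 40.5 ± 6.3 in CK2D, and ferric/cupric reductase component B (PCI_2114) averaged 7.67 ± 0.48, 7.09 ± 2.8 and 4.20 ± 0.054 in the same order of groups. Both rose in TL3D (adjusted p = 0.00656 and 0.00167) and missed the threshold in TL2D (adjusted p = 0.152 and 0.124). Whether the days differ there was tested directly, with adjusted p = 0.34 and 0.751 in TL3D against TL2D. PCI_6277 and PCI_4829 did not pass in any comparison.

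Vacuolar iron transporter genes named cccA, for the importer that stores iron in the vacuole, were higher on leaves. PCI_0018 had 34.7 and 36.2 FPKM in TL3D, 36.0 and 33.8 in TL2D, and 12.1 and 15.5 in CK2D. The 4 leaf libraries lie close together and above both plate libraries. It rose 2.57-fold in TL3D (log2 1.31 ± 0.13, adjusted p = 0.000131) and 2.53-fold in TL2D (1.29 ± 0.15, adjusted p = 0.00419). The other cccA gene (PCI_5250) had 68.3 and 71.1 FPKM in TL3D, 110.5 and 56.6 in TL2D, and 46.3 and 50.1 in CK2D. It rose in TL3D (log2 0.52 ± 0.09, adjusted p = 0.002) but did not pass in TL2D, where its replicates lay far apart (0.70 ± 0.33, adjusted p = 0.132).

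The 3 hemophore and CFEM genes each had a pattern of their own. The GPI-anchored hemophore gene cfmB (PCI_2843) had 3.88 and 3.15 FPKM in TL3D, 5.40 and 5.51 in TL2D, and 249 and 349.5 in CK2D. It was high on plates and low in all 4 leaf libraries. It fell, with log2 changes of −6.04 ± 0.17 in TL3D (adjusted p = 2.66e-07) and −5.52 ± 0.18 in TL2D (adjusted p = 0.000278). On the log2(FPKM + 1) scale these were the largest fitted changes among the tested iron genes in either direction. As ratios of means the falls were 85.09-fold and 54.85-fold. The ratios of PCI_7080, which rest on its low plate values, were larger at 191.6-fold in TL3D and 141.5-fold in TL2D. The other hemophore, cfmA (PCI_6026), had 67.9 and 73.3 FPKM in TL3D, 105 and 212 in TL2D, and 90.6 and 61.3 in CK2D. Both TL2D libraries were above every plate and TL3D library. In the limma fits of 4 libraries cfmA passed in no comparison. The adjusted p was 0.718 in TL3D and 0.0913 in TL2D against CK2D, and 0.116 in TL3D against TL2D. By the authors' deposited FDR it passed in TL2D against CK2D (0.00715) and in TL3D against TL2D (0.00531). In 1 fit of all 6 libraries it was called in TL2D against CK2D.

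The extracellular membrane protein with a CFEM domain (PCI_4577) was the most abundant of the 49 genes in TL3D and CK2D. It had 530 and 488 FPKM in TL3D, 215 and 127 in TL2D, and 1031 and 1005 in CK2D. The groups do not overlap and TL2D is lowest. It fell against plates, with log2 changes of −0.999 ± 0.08 in TL3D (adjusted p = 6.43e-05) and −2.62 ± 0.26 in TL2D (adjusted p = 0.00314), and rose in TL3D against TL2D (1.62 ± 0.26, adjusted p = 0.0314). That last call was lost without either TL3D replicate (adjusted p = 0.318 and 0.267). As for PCI_5211, the summed level of conidia and hydrophobin names was lowest in the same group, at 10173 and 7262 FPKM in the TL2D replicates. The hydrophobin PCI_0227 alone held 6085 and 3764 FPKM of these sums. The part of these names in the pattern of PCI_4577 was not tested.

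**Figure D4:**
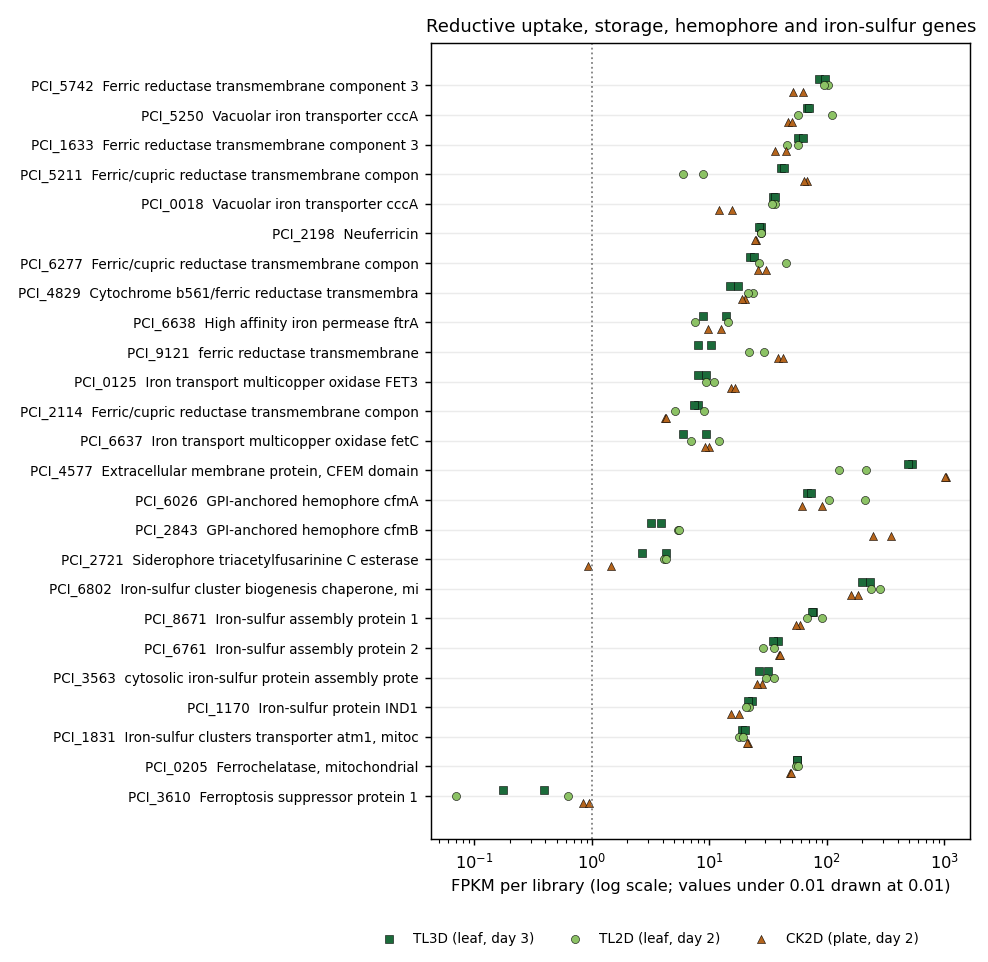
FPKM of the 25 iron genes that are not transporters of siderophores, in each library (x axis, log scale), squares for TL3D, circles for TL2D and triangles for CK2D, grouped from top to bottom as reductive uptake and storage, hemophore and CFEM, siderophore esterase, iron-sulfur, and others. PCI_5211 and PCI_4577 are lowest in TL2D, PCI_9121 is lowest in TL3D, cfmB (PCI_2843) is high on plates alone, and the iron-sulfur genes have their symbols close together.

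Of the 6 iron-sulfur genes, 3 rose in TL3D against CK2D, beside 28.1% of all tested genes, and 1 rose in TL2D against CK2D, beside 24.8%. In neither comparison did limma call any of them lower, and 0 had a negative change at an unadjusted p under 0.05. In TL3D against TL2D limma called 0 of 6, and 0 had an unadjusted p under 0.05 or passed by the authors' deposited FDR. In TL2D against CK2D that FDR passed PCI_6802 (0.00141), PCI_1170 (0.0213) and PCI_8671 (0.0254), each with a higher mean in TL2D. The mitochondrial cluster biogenesis chaperone (PCI_6802) averaged 216 ± 22 FPKM in TL3D, 259 ± 32 in TL2D and 173 ± 18 in CK2D (SD, n = 2 each). It rose by log2 0.32 ± 0.11 in TL3D (adjusted p = 0.0378) and 0.58 ± 0.14 in TL2D (adjusted p = 0.0234). Fitted with replicate numbers as a block, it passed in neither comparison. Assembly protein 1 (PCI_8671), a scaffold partner in cluster assembly, and IND1 (PCI_1170), which serves respiratory complex I, rose in TL3D by log2 0.40 and 0.40 (adjusted p = 0.00608 and 0.017). Assembly protein 2 (PCI_6761), the cytosolic assembly protein 1 (PCI_3563) and the mitochondrial exporter atm1 (PCI_1831) did not pass in any comparison.

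Ferrochelatase (PCI_0205), which puts iron into haem, had 55.9 and 56.0 FPKM in TL3D, 54.5 and 56.7 in TL2D, and 48.7 and 49.6 in CK2D. All leaf libraries were above the plate libraries, but the difference did not pass (log2 0.18 ± 0.08 and 0.17 ± 0.09, adjusted p = 0.0965 and 0.149). Neuferricin stayed between 24.6 and 27.6 FPKM in all 6 libraries, with no call. Ferroptosis suppressor protein 1 reached at most 0.943 FPKM, on plates.

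**Figure D5:**
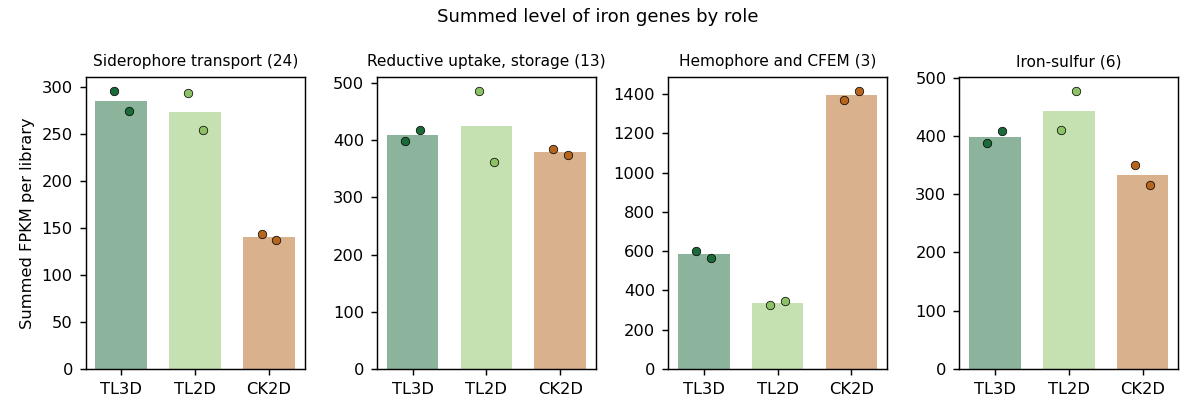
Summed FPKM of the genes of each role in every library (points) with the mean of the 2 libraries (bars, from 0), for TL3D, TL2D and CK2D from left to right, each panel with its own axis. The number of genes stands in brackets. Reductive uptake and storage includes neuferricin. Siderophore transport is higher in both leaf groups than on plates, hemophore and CFEM genes are lower there, and for reductive uptake and storage the TL2D replicates, at 486.3 and 362.6, lie on either side of the CK2D values.

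Further genes were taken from 8 lists of names, 116 genes in all with the synthesis list above, none of them among the 49. Not all serve iron metabolism, since the lists take in ornithine supply and transporters of zinc and copper. Where the text speaks of other iron genes or other iron metabolism genes, all of these lists are meant. Of the 104 tested in each comparison with plates, 34 rose and 26 fell in TL3D, and 34 rose and 30 fell in TL2D, with medians of 0.04 and 0.02. The shares of all tested genes to read these and the following counts against are 28.1% higher and 30.2% lower in TL3D, and 24.8% higher and 29.4% lower in TL2D. In TL3D against TL2D 4 of 100 rose and 6 fell, beside 6.77% and 3.3% of all tested genes. In haem synthesis 6 of 10 rose in TL3D and 5 of 10 in TL2D, and 0 fell in either. The porphobilinogen deaminase PCI_2225, an early step of the pathway, averaged 18.2 FPKM in TL3D, 22.8 in TL2D and 8.91 in CK2D. A more abundant gene of that name (PCI_3305) differed less, with means of 32.37, 34.52 and 29.75 in the same order. A further one (PCI_0896) stayed at or under 0.528 FPKM. The uroporphyrinogen-III C-methyltransferase PCI_0770, which leads to sirohaem, averaged 42.3 in TL3D, 53.5 in TL2D and 20.9 in CK2D. In the list of ornithine supply, which shares 4 genes with siderophore synthesis, 6 of 18 rose and 5 fell in TL3D, and 10 rose and 5 fell in TL2D.

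Another list was drawn by names of enzymes that hold iron-sulfur clusters or haem. Of its 22 tested genes, 10 rose and 4 fell in TL3D, and 11 rose and 5 fell in TL2D. The name search also took in trans-aconitate 2-methyltransferase (PCI_6720), among others, so not every gene of the list codes for such an enzyme. The largest fitted rise in TL2D was in a catalase (PCI_2755), with 42.9 and 45.8 FPKM in TL3D, 103 and 84.8 in TL2D, and 5.14 and 4.73 in CK2D. Genes with catalase names did not share a direction. In TL2D PCI_7129 had 36.71 and 7.998 FPKM, beside a mean of 0.9981 in CK2D. In the same groups PCI_6124 had 26.74 and 1.207 beside a mean of 88.71, and PCI_6212 had 13.04 and 0.7183 beside 69.1. The TL2D replicates of these genes thus lay far apart. In TL3D PCI_7129 averaged 13.55 FPKM, PCI_6124 215.4 and PCI_6212 77.15. In further assembly genes 2 of 10 rose in each leaf group, with 2 lower in TL3D and 1 in TL2D. Of 24 tested transporters of other metals, 3 rose and 11 fell in TL3D, and 1 rose and 12 fell in TL2D. The zinc-regulated transporter 1 gene PCI_9228 had 31.6 and 19.3 FPKM in TL3D, 45.2 and 59.1 in TL2D, and 261 and 281 in CK2D. A Ctr copper transporter gene (PCI_7211) averaged 7.58 FPKM in TL3D, 1.13 in TL2D and 19.1 in CK2D. Both multicopper oxidases outside the member list, abr1 and a laccase-like gene, fell in both leaf groups.

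Among 9 candidate regulators, 3 rose and 1 fell in TL3D, and 2 rose and 2 fell in TL2D. The SREP gene (PCI_6666), named for the *Penicillium* GATA repressor of siderophore genes, had 20.1 and 19.4 FPKM in TL3D, 17.6 and 13.5 in TL2D, and 25.1 and 23.5 in CK2D. It was lower in every leaf library, and fell by log2 0.28 ± 0.10 in TL3D (adjusted p = 0.0361) and 0.62 ± 0.16 in TL2D (adjusted p = 0.0293). The bZIP factor hapX (PCI_7858) had 14.0 and 14.1 FPKM in TL3D, 14.7 and 12.4 in TL2D, and 11.2 and 10.7 in CK2D. It rose in TL3D (log2 0.34 ± 0.10, adjusted p = 0.0236) and did not pass in TL2D (0.28 ± 0.13, adjusted p = 0.133). A gene named only CCAAT-binding factor (PCI_9225) averaged 24.2 FPKM in TL3D, 33.3 in TL2D and 14.5 in CK2D and rose in both (log2 0.70 ± 0.10 and 1.14 ± 0.11). Its name does not show whether it belongs to the complex that HapX binds in *Aspergillus*. The gene named HAP2 (PCI_9307) averaged 65.1 FPKM in TL3D, 63.6 in TL2D and 76.7 in CK2D. For HAP5 (PCI_4252) the means were 88.7, 61.8 and 76.2 in the same order.

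Several of the 49 genes carry numbers next to each other or to synthesis genes. Whether neighbouring numbers mean neighbouring places was not tested, since 0 of the gene numbers match the RefSeq table of 11657 genes. The mirB gene PCI_0857 follows sidJ, sidD, an ABC transporter, sidF and sidH (PCI_0852 to PCI_0856). Their levels differ widely. On leaves mirB averaged 7.92 FPKM in TL3D and 16.0 in TL2D, while sidF (PCI_0855) averaged 0.747 and 0.459 there and 0.177 in CK2D. The same kinds of name recur from PCI_2590 to PCI_2594, where the levels differ in another way. There mirB stayed at or under 0.675 FPKM, while sidH (PCI_2591), SID3 (PCI_2593) and nonribosomal peptide synthetase 6 (PCI_2594) rose in TL2D, to means of 9.33, 16.0 and 2.23 FPKM against 3.22, 8.27 and 0.779 in CK2D.

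The calls depend on how many libraries carry the spread. In TL2D against CK2D 12 iron genes were called without CK2D replicate 1 and 11 without CK2D replicate 2, where the spread rests on the TL2D pair alone, and all tested genes called then numbered 1134 and 1131. Of the genes described above with a log2 change of at least 1 in any comparison, PCI_1087, PCI_1693, PCI_4299, PCI_5829, PCI_7080, PCI_8596 and PCI_9121 lost their TL2D call without either CK2D replicate, with adjusted p from 0.0504 to 0.188. PCI_2693 lost it without replicate 1 (adjusted p = 0.0519) and PCI_2721 without replicate 2 (adjusted p = 0.0615). PCI_1087 also lost it without TL2D replicate 2 (adjusted p = 0.0514), and PCI_1693 without TL2D replicate 1 (adjusted p = 0.0539) or when blocked by replicate number (adjusted p = 0.0639). FET3 (PCI_0125), PCI_0648 and PCI_6802 lost it without either CK2D replicate, and PCI_5742 without replicate 2. In TL3D against CK2D, the calls of PCI_0648, PCI_1633 and PCI_6802 were lost without TL3D replicate 2, that of PCI_1170 without TL3D replicate 1 or CK2D replicate 2, that of PCI_6802 also without CK2D replicate 2, and those of PCI_5250, PCI_6802 and PCI_8671 in 1 fit of all 6 libraries. In TL3D against TL2D limma called 0 iron genes and 0 of all tested genes without TL3D replicate 1, and likewise without TL3D replicate 2.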

How the data were processed

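The members, lists, tests and alternatives were chosen with earlier results of these data known. Per the file headers, the authors deposited FPKM per gene and replicate for *Penicillium citrinum* in 2 tables, with a fold (a ratio of mean FPKM), its log2, and an FDR (a p-value adjusted by the authors, by a test that no source used here gives). The submitters' processing notes name Cufflinks, and no source used here gives the aligner, genome build or annotation. Both tables hold the same TL2D values. Low FPKM values showed no steps of whole reads (at most 3 genes shared 1 ratio between libraries), so depth is unknown and no counting interval is given.

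R 4.3.3 with limma 3.58.1 fitted log2(FPKM + 1) with eBayes and a trend, on the 4 libraries of each comparison (2 residual degrees of freedom), for genes reaching 1 FPKM in 2 or more of them. p-values were adjusted over all tested genes by Benjamini and Hochberg's method. The fit was tested on simulated data. By rule, all 6 values are given for the 4 marker genes (PCI_4951, PCI_5211, PCI_9121 and PCI_2843) and for members called with a log2 change of at least 1, 20 in all. Other members, some with all values, are named to account for every member, and some genes of the other lists were named after their values were seen. CK2D and TL3D come from separate tables.

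Alternatives were a pseudocount of 0.1, no filter, upper-quartile and median log ratio scaling, the replicate number as a block, all 6 libraries in 1 fit, the authors' FDR, an adjusted p under 0.01, a log2 change of at least 1, and each replicate left out. A crossed block was added after the data were seen.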

Additional observations from a re-analysis of the deposited data

How the results depend on the processing

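For the 20 genes named in full, 606 of 649 values under an alternative kept their side of the threshold. Values that changed sign with no call in either fit are counted among these. Another 34 kept the direction and lost the call, and 9 kept the direction and gained one. Reversals of direction with a call in either fit numbered 0. The counts called among the 49 iron genes were within 1.5 times under a pseudocount of 0.1, no filter, both scalings, the block, 1 fit of all libraries and the authors' deposited FDR. Median log ratio scaling moved the median of all genes in TL2D against CK2D to −0.02.

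In TL2D against CK2D, an adjusted p under 0.01 left 14 iron genes, 2183 of all genes and 33 of the other iron metabolism genes, and a log2 change of at least 1 left 15, 1844 and 26. Without 1 replicate they ranged from 11 to 28, from 1131 to 5229 and from 16 to 74. In TL3D against TL2D, an adjusted p under 0.01 left 0, 0 and 0, and a log2 change of at least 1 left 3, 490 and 5. All 6 libraries in 1 fit gave 1515 of all genes and 27 other iron genes, and the authors' deposited FDR gave 1842 and 28. Without 1 replicate they ranged from 0 to 17, from 0 to 3251 and from 0 to 44. In TL3D against CK2D, a log2 change of at least 1 left 16, 1328 and 17, and an adjusted p under 0.01 left 39 other iron genes. Without 1 replicate they ranged from 25 to 29, from 3673 to 4324 and from 46 to 50.

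With the replicate number as a block, 20, 4 and 28 iron genes were called in TL2D against CK2D, TL3D against TL2D and TL3D against CK2D. The numbers are not known to pair the samples. Deviations of same-numbered samples correlated at −0.08, 0.176 and −0.247, and a crossed pairing in TL3D against CK2D called 30. FPKM carry no depth, so the precision of the low genes is unknown.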
